A study of Mus musculus with 27 samples.

Results

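Granins and prohormone-processing genes were followed across the RNA libraries of a mouse study of Nkx2.2, a homeodomain transcription factor of endocrine pancreas and ventral spinal cord, and of a mutation in its SD domain. The 10 genes, chosen by symbol, were Chga, Chgb, Scg2, Scg3, Scg5, Vgf, Pcsk1, Pcsk2, Cpe and Ptprn. All 10 had a row in each count table, among 55536 genes for embryonic pancreas, 26487 for islets and 39017 for progenitors. They took 2.90% to 3.98% of the counts of an islet library, 0.0532% to 0.122% of an embryonic pancreas library and 0.0110% to 0.0265% of a progenitor library.

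Granins are acidic proteins that aggregate in the late Golgi and load the dense-core granules of endocrine cells and neurons, and several of them are also cut into peptides. The convertases encoded by Pcsk1 and Pcsk2 cut prohormones such as proinsulin and proglucagon at paired basic residues inside the granule, the protein of Scg5 accompanies the Pcsk2 product and keeps it inactive until the granule acidifies, and carboxypeptidase E, from Cpe, trims the exposed basic residues. Ptprn encodes a receptor-type phosphatase homologue of the granule membrane, known as an autoantigen in type 1 diabetes.

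Whole embryonic (E15.5) pancreas gave 3 libraries of wildtype controls and 4 libraries with the SD-domain mutation in the whole body (SDmut). Islets at 8 weeks gave 2 control libraries and 3 libraries with the mutation in beta cells (betaSDmut). Islets at 4 weeks gave 2 control libraries and 2 libraries whose labels give a loss of Nkx2.2 in beta cells (betaKO). The transgene that drives recombination is not given in the sources used here. Motor neuron progenitors at day 4 of differentiation came from mouse embryonic stem cell lines with a doxycycline-inducible, FLAG-tagged Nkx2.2, either wildtype (iNkx2.2, 3 libraries) or SD-mutant (iSDmut, 2 libraries), both given 1 µg/ml doxycycline for about 16 h. The 3 control libraries (pMN) were the iNkx2.2 line without doxycycline. No uninduced library of the iSDmut line is among the groups, so the line and the mutation cannot be told apart, nor can doxycycline and the transgene. Nkx2.2 binding was measured by chromatin immunoprecipitation sequencing (ChIP-seq) in MIN6, a beta-cell line of mouse origin, with 2 replicates.

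Total counts were 38447596 to 41840638 in embryonic pancreas, 12398041 to 32385406 in islets and 17757991 to 46840701 in progenitors. Genomic DNA is the molecule given for the 4-week islets, but their columns hold gene-level RNA counts. Nkx2-2 itself was at 103 and 76.2 CPM (counts per 1000000, normalised) in the 4-week controls and at 92.8 and 64.5 in the libraries labelled betaKO, a difference of -0.18 on the log2 scale (SE 0.237, adjusted p = 0.779 by edgeR). A gene-level count does not show whether part of the gene was deleted. Nkx2-2 differed by -0.10 at E15.5 and by -0.10 at 8 weeks, where the change is a mutation within the gene, with overlapping groups. In progenitors it was higher by 5.25 in iNkx2.2 and by 4.72 in iSDmut (log2, edgeR adjusted p = 1.49e-05 and 4.01e-05). Embryonic control 3 and SDmut 2 held skeletal muscle RNA, with 5613 and 6494 CPM summed over 8 muscle genes against 11.4 to 75.9 in the other 5 embryonic libraries. No label states that replicates came from separate animals or cultures, so p-values cover only the spread between these samples.

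The start regions of several members carry a recognisable element, and these sequences are shown because the members below moved in different directions. The table of promoters used here (RefSeq, GRCm38.p6, 250 bases before to 50 after a start) matched 8 members. The cyclic AMP response element, TGACGTCA, was searched on both strands, as was its shorter part TGACG, which lies inside it. TGACGTCA was present in Chgb, Scg2 and Pcsk1, 3 of 8 members, and in 1.79% of 32851 mouse promoters of this length. TGACG was present in a promoter of each of the 8 members and in 20.8% of all promoters. The 120 bases before the start are given 5′ to 3′ in the direction of the gene, with TGACG or CGTCA and TGACGTCA in capitals.
Chgb, chr2:132781522-132781641, plus strand: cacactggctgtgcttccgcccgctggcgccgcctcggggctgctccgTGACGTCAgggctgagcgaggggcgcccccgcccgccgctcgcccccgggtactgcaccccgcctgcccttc
Scg2, chr1:79440027-79440146, minus strand: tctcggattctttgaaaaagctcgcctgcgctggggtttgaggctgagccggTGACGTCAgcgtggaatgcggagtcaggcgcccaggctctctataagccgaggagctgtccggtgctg
Pcsk1, chr13:75089737-75089856, plus strand: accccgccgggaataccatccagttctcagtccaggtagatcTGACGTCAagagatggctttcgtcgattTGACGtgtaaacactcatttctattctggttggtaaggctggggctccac
Chga, chr12:102554821-102554940, plus strand: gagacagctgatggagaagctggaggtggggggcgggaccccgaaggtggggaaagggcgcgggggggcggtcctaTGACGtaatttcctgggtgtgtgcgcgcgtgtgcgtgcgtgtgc
Pcsk2, chr2:143546013-143546132, plus strand: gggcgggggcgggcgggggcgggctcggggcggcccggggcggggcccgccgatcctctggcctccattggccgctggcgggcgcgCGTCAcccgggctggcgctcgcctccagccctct

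The full element began 72 bases before the start in Chgb, 68 in Scg2 and 78 in Pcsk1. Chga held TGACG at 44 bases and not the full palindrome, and Pcsk2 held only the short part on the other strand. These are matches of letters, and no measurement of the factors that bind them was made.

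In islets the 10 genes spanned a wide range of levels per transcript length, which the deposited FPKM values (fragments per kilobase of transcript, scaled to depth) allow to be compared between genes. In 8-week controls Chga was highest at 9776 ± 1054 FPKM (SD, n = 2), followed by Scg2 at 3345 ± 32.1 and Cpe at 2580 ± 152. Scg5 (1326 ± 110) and Pcsk2 (1219 ± 117) overlapped, and Scg3 (1039 ± 28.9), Chgb (857 ± 34.7), Pcsk1 (428 ± 44.2) and Ptprn (237 ± 49.9) followed in separate steps. Vgf, precursor of a neuroendocrine peptide family, was lowest at 14.2 ± 6.30 FPKM. In 8-week betaSDmut islets Scg2 stood first at 8218 ± 1490 FPKM (n = 3) and Chga second at 4526 ± 139, and the libraries of these 2 genes did not overlap. In the 4-week libraries labelled betaKO Chga stayed first at 7933 ± 650 FPKM (n = 2), with Scg2 at 4612 ± 122.

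At 8 weeks the granins moved apart in betaSDmut islets. Chga fell to 0.457 of the control level, while Chgb rose 1.58-fold, Scg2 2.43-fold, Scg3 1.41-fold and Vgf 4.05-fold. These 5 were the members called in this comparison, meaning an adjusted p under 0.05 in edgeR's quasi-likelihood test over all genes tested. Neither convertase, nor Scg5, Cpe or Ptprn, was called. The background was 7.94% of 15413 genes called, with 4.07% higher and 3.87% lower. The median log2 fold change was 0.19 over the members and 0.01 over all genes tested.

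Chga, the precursor of pancreastatin and other granule peptides, was at 12674 and 14612 CPM in the controls and at 6633, 6098 and 6031 CPM in betaSDmut. Every mutant library lay below both controls, by more than the spread within either group. The log2 fold change was -1.13 (SE 0.114, edgeR adjusted p = 0.00626). Chgb, its closest relative in the family, was at 1804 and 1692 CPM in the controls and at 2693, 2634 and 3006 CPM in betaSDmut. All 3 mutant libraries were above both controls, so the sign was opposite to that of Chga in the same libraries. The log2 fold change was 0.66 (SE 0.111, edgeR adjusted p = 0.0247).

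Scg2, the secretogranin that gives rise to secretoneurin, was at 6285 and 6322 CPM in the controls and at 12468, 17382 and 16226 CPM in betaSDmut. The groups did not overlap, and betaSDmut 1 was the lowest of the mutant libraries. Its log2 fold change was 1.28 (SE 0.170, edgeR adjusted p = 0.0127). Scg3, a granule membrane granin that binds chromogranin A, was at 1689 and 1740 CPM against 2361, 2606 and 2334 CPM, a log2 fold change of 0.50 (SE 0.0974, adjusted p = 0.0368). Vgf was at 18.6 and 35.4 CPM against 74.6, 129 and 126 CPM, a log2 fold change of 2.02 (SE 0.390, adjusted p = 0.0442).

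Neither convertase was called at 8 weeks in the main fit. Of the 12 alternative fits 2 called Pcsk2, lower. Pcsk2 was at 3462 and 3945 CPM in the controls and at 2648, 2779 and 2668 CPM in betaSDmut, lower in every mutant library without reaching the threshold (log2 fold change -0.46, SE 0.103, edgeR adjusted p = 0.0516). Pcsk1 was at 787 and 900 CPM against 798, 902 and 968 CPM, with overlapping groups, a log2 fold change of 0.07 and a 95% interval from -0.23 to 0.38. The ratio of Pcsk1 to Pcsk2 counts within a library was 0.227 and 0.228 in the controls and 0.301 to 0.363 in betaSDmut (exact permutation p = 0.2, two-sided, the smallest possible, and 0.379 when adjusted over 36 ratio tests). Scg5 (0.20), Cpe (0.18) and Ptprn (0.05) had small log2 differences, with overlapping groups and adjusted p-values of 0.424, 0.418 and 0.879. Altogether 6 members had groups that did not overlap, where 45.7% of all tested genes did so with 2 against 3 libraries.

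The authors' deposited table for this comparison called the same 5 members, with Chga at -1.13 and Scg2 at 1.26 on the log2 scale. Their table that sets betaSDmut against all islet controls called these 5 and Pcsk2 (-0.38). Without either control library (8wk control 1 or 2) no member was called, with Chga at -1.23 and -1.02 and adjusted p of 0.0644 and 0.0962. In those fits 1 control remains and is assumed to vary like the other group, and the genes called over the whole table numbered 45 and 37 instead of 1224. Without betaSDmut 2 only Chga was called. Acinar genes, summed over 21 markers, were at 5439 to 8703 CPM in controls and 767 to 7143 CPM in betaSDmut. With an acinar covariate Chga, Chgb and Scg2 remained called.

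**Figure D1:**
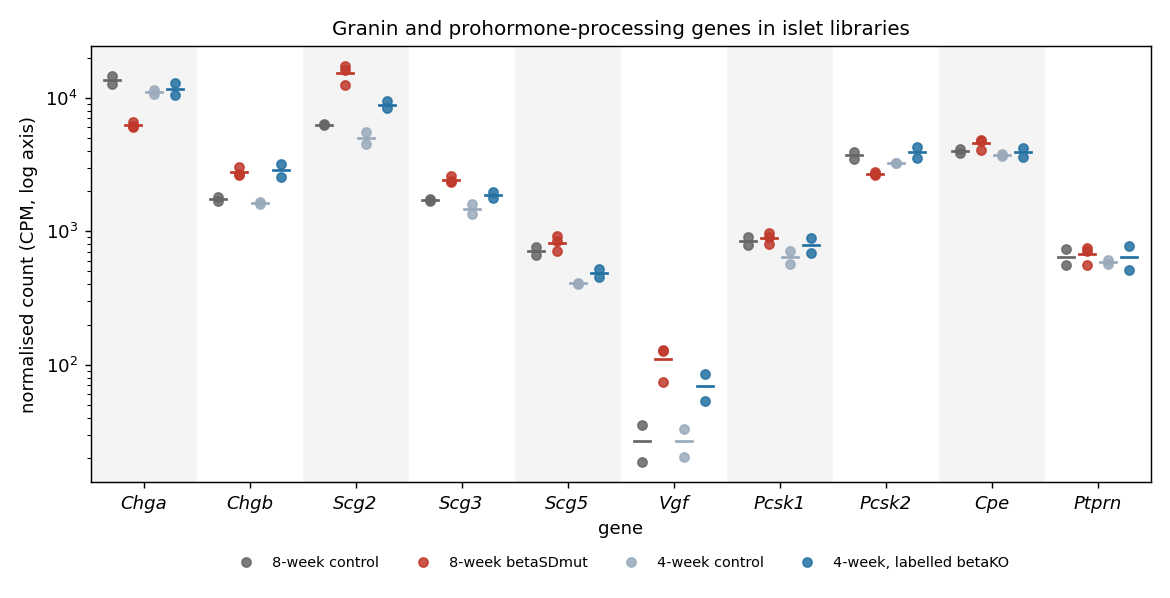
Normalised counts (CPM, log axis) of the 10 genes in each of the 9 islet libraries, with short bars at group means and colours for the 4 groups. In 8-week betaSDmut islets Chga sits between 6031 and 6633 CPM, below both controls, while Chgb, Scg2, Scg3 and Vgf sit above theirs.

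Markers of the islet cell types were read in the same libraries. The 8 beta-cell markers summed to 236542 to 241787 CPM in 8-week controls and to 198966 to 219463 CPM in betaSDmut, and none was at 0. The 6 alpha-cell markers summed to 32220 to 40876 CPM and to 23114 to 33046 CPM, and the 3 delta-cell markers to 2075 to 3079 CPM and to 4939 to 6509 CPM. In the delta list Rbp4, a retinol carrier named here after its values were seen, rose by 3.68 (SE 0.122, edgeR adjusted p = 0.000382). The 8 postmitotic neuron markers summed to 305 to 326 CPM in controls and to 363 to 415 CPM in betaSDmut, without overlap, and 2 of them rose, Nefm by 2.06 and Snap25 by 0.37, both named after their values were seen. The 4 stroma markers summed to 194 to 253 CPM and to 101 to 157 CPM, also without overlap, and none was called by edgeR (3 had an unadjusted p under 0.05). Fewer cells of a type and less RNA per cell cannot be told apart in bulk samples, and the part of cell composition in the granin changes was not tested.

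Among 16 tested genes of a peptide-processing list, outside the 10 genes, 2 rose and 3 fell in 8-week betaSDmut islets. The list held enzymes that cut, trim or amidate peptides, inhibitors of these, and some other genes, Nucb2 among them. Pam, which amidates peptide ends, rose from 724 ± 34.8 (SD, n = 2) to 1380 ± 199 CPM (n = 3), by 0.93 on the log2 scale (edgeR adjusted p = 0.0218). Nucb2, the nesfatin precursor listed with them, rose by 0.55 (edgeR adjusted p = 0.0490). The carboxypeptidase gene Cpm fell by 1.26, and the convertase genes Pcsk4 and Pcsk6 fell by 1.05 and by 0.99. Of 21 tested genes of dense-core granule formation and transport, 2 rose and 2 fell. Slc30a8, the zinc transporter of insulin granules, fell from 1178 ± 75.2 to 545 ± 78.5 CPM, by 1.12 on the log2 scale (edgeR adjusted p = 0.00953). The related priming factors Cadps and Cadps2 moved in opposite directions, at -0.67 and 1.17, and Rab27b, a granule-docking GTPase, rose by 1.42. None of the 18 tested prohormone precursors was called by edgeR in this comparison, and 6 of them had an unadjusted p under 0.05, against 25.7% of all genes. The share of all genes called, for these 3 lists, was the 7.94% given above. The medians of the 3 lists were -0.01, 0.05 and -0.08, against 0.01 for all genes.

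In the 4-week libraries labelled betaKO no member was called, where 1.56% of 14942 tested genes were. All 10 log2 fold changes were positive, with a median of 0.29 against -0.00365 over all genes, and 5 members had an unadjusted p under 0.05 in edgeR (15.2% of all genes). DESeq2 called 3, Chgb, Scg2 and Vgf, in a fit that called 770 genes over the whole table. Chga was at 10628 and 11423 CPM in the controls and at 12845 and 10449 CPM in the libraries labelled betaKO. One library of that group lay above and the other below both controls, and the log2 fold change was 0.08 (SE 0.139, 95% interval -0.26 to 0.42).

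Chgb, Scg2 and Vgf again had the largest positive differences among the members. Chgb was at 1671 and 1604 CPM in 4-week controls and at 3186 and 2565 CPM in betaKO-labelled libraries, a log2 fold change of 0.81 (SE 0.134, adjusted p = 0.0608 in edgeR). Scg2 was at 5580 and 4493 CPM against 9449 and 8340 CPM (0.82, SE 0.149, adjusted p = 0.0736 in edgeR). For both genes the groups did not overlap, as for 6 members in all, while 47.5% of all tested genes did not overlap with 2 against 2 libraries. Vgf was at 33.1 and 20.5 CPM against 85.9 and 53.6 CPM, a difference of 1.37 (SE 0.359, edgeR adjusted p = 0.223). With an acinar covariate the values were 0.49 for Chgb, 0.49 for Scg2 and 0.37 for Vgf, with edgeR adjusted p-values of 0.367, 0.405 and 0.509. The authors' deposited table, which sets the libraries labelled betaKO against all islet controls, called Chgb (0.78) and no other member. Scg3 (0.34), Pcsk1 (0.31), Pcsk2 (0.27), Scg5 (0.26), Ptprn (0.12) and Cpe (0.07) had edgeR adjusted p-values of 0.289 to 0.848.

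In the same libraries 1 of 16 genes of the peptide-processing list rose, Pam, by 0.73 (SE 0.106, edgeR adjusted p = 0.0468). Of 21 granule genes 1 fell, Sytl4 (granuphilin), by 0.76. Of 19 tested precursors 3 rose and 1 fell. For each of these lists the share of all tested genes called was 1.56%. Gcg rose by 1.06, Ppy by 1.47 and Npy by 3.69, and Ucn3, a peptide of mature beta cells, fell by 1.41. Alpha-cell markers summed to 25950 to 30296 CPM in controls and to 52352 to 64193 CPM in the libraries labelled betaKO, and acinar markers to 4115 to 7582 CPM and to 9847 to 28645 CPM. Beta-cell markers summed to 210435 to 214914 CPM in controls and to 166696 to 178877 CPM in the other group. In the same order delta-cell markers summed to 1886 to 3432 CPM and to 5126 to 6419 CPM, PP and epsilon markers to 3485 to 3563 CPM and to 8349 to 10875 CPM, and stroma markers to 188 to 196 CPM and to 324 to 398 CPM. For each of these 6 lists the groups did not overlap. Postmitotic neuron markers, at 292.7 to 292.9 CPM and 330 to 342 CPM, were also higher without overlap, as were duct and motor neuron markers. Endothelial, Schwann and neural crest, and motor neuron progenitor markers were lower without overlap. Of all tested genes 47.5% did not overlap here. The part of these cells in the members' values was not tested.

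The effects of the 2 islet comparisons differed for Chga. The difference of effects, betaSDmut minus betaKO, was -1.20 (SE 0.179, edgeR adjusted p = 0.0243), and Chga was the only member called, against 1.21% of 15995 tested genes in both directions and 0.569% in the negative one. For Pcsk2 the difference was -0.72 (SE 0.161, adjusted p = 0.0869 in edgeR). The authors' deposited table, which sets betaKO directly against betaSDmut across the ages, called Chga (0.92) and Pcsk2 (0.56) higher in betaKO. Chgb had a difference of -0.14, with a 95% interval from -0.54 to 0.25, and Scg2 one of 0.46 with an edgeR adjusted p of 0.438. Age, preparation and genotype all differ between these comparisons and cannot be told apart. The call for Chga ended when 8wk control 1 or 2, betaSDmut 2, or 4wk control 1 or 2 was left out, with values from -1.30 to -1.10, and with a replicate block (-1.18) or an acinar covariate (-1.26).

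Whether 2 genes shift relative to each other can be read within a library, where depth and scaling cancel. The count ratio of Chga to Chgb was 7.02 and 8.63 in 8-week controls and 2.46, 2.32 and 2.01 in betaSDmut. It was 6.36 and 7.12 in 4-week controls and 4.03 and 4.07 in the libraries labelled betaKO. The ratio was thus lower in every changed islet library than in every control, by 1.79 on the log2 scale at 8 weeks and by 0.73 at 4 weeks. The exact permutation p (two-sided) was 0.2 and 0.333, the smallest that 2 against 3 and 2 against 2 libraries allow. At 8 weeks Chga fell and Chgb rose, whereas at 4 weeks Chgb was higher without overlap and the groups overlapped for Chga. The ratio of Chga to Pcsk1 was 16.1 and 16.2 in 8-week controls and 6.23 to 8.31 in betaSDmut, and the ratio of Chga to Pcsk2 was 3.66 and 3.70 against 2.19 to 2.50.

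**Figure D2:**
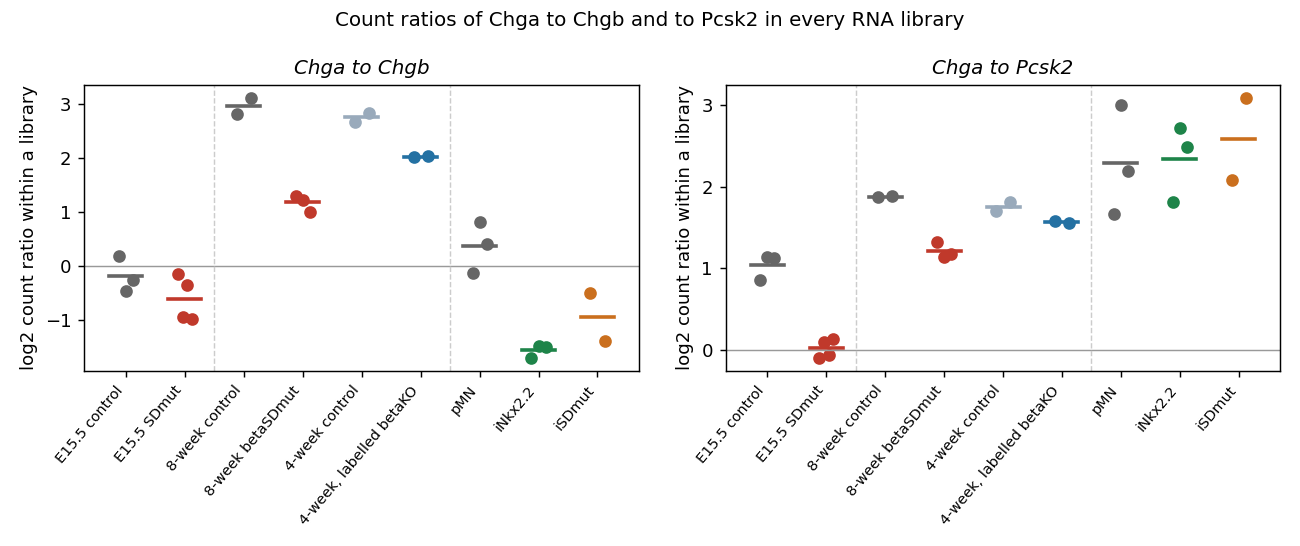
log2 count ratios of Chga to Chgb (left) and Chga to Pcsk2 (right) in each RNA library, by group, with bars at group means and dashed lines between tissues. The Chga to Chgb ratio has means of 2.96 and 1.17 in the 8-week control and betaSDmut groups, and of 0.36 and -1.57 in pMN and iNkx2.2.

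Over the 9 islet libraries Chga and Pcsk2 levels were alike (Pearson r = 0.91 of log2 CPM), and Chga ran opposite to Scg2 (r = -0.83) and Chgb (r = -0.56). Scg2 and Vgf had r = 0.94, and Scg2 and Chgb r = 0.85. These values describe 9 libraries that share 4 groups and 2 ages, so they carry the group differences given above. Among 5081 well-expressed genes the closest to Chga were Brpf3 (0.956), Slc3a2 (0.953), Lpl (0.950), Bahd1 (0.947) and Pkdcc (0.945). The closest to Chgb were Sgms1 (0.971), Pex5l (0.969), Plekha1 (0.967), Dhrs7 (0.966) and Nap1l5 (0.958).

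In whole embryonic pancreas the 2 chromogranins had the largest differences among the members, both lower in SDmut. No member was called by edgeR, where 0.00534% of 18723 tested genes were, and 2 members had an unadjusted p under 0.05 (2.54% of all). Chga was at 279, 152 and 131 CPM in the controls and at 64.9, 49.9, 87.5 and 70.1 CPM in SDmut. Chgb was at 245, 209 and 158 CPM in the controls and at 72.6, 96.4, 112 and 139 CPM in SDmut. For both genes every SDmut library was below every control, which held for 1.97% of all tested genes.

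The log2 fold change was -1.46 for Chga (SE 0.290, unadjusted p = 0.00127, edgeR adjusted p = 1.00) and -0.96 for Chgb (SE 0.234, unadjusted p = 0.00401, edgeR adjusted p = 1.00). The authors' deposited table, made with DESeq2, lists Chga at -1.33 with an adjusted p of 0.00293 and Chgb with an adjusted p of 0.132. DESeq2 run on the same counts also called Chga, alone among the members (adjusted p = 0.00249), so that call depends on the tool. That DESeq2 fit called 25 genes over the whole table. Without the 2 muscle-containing libraries the count of called members stayed at 0.

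The processing enzymes had overlapping groups. Pcsk1 was at 45.6, 28.9 and 22.9 CPM in the controls and at 17.7, 15.02, 27.2 and 22.8 CPM in SDmut, overlapping, with a log2 fold change of -0.65 (95% interval -1.31 to 0.0030, edgeR adjusted p = 1.00). Pcsk2 was at 154, 68.6 and 60.1 CPM against 69.6, 46.8, 91.3 and 64.1 CPM, with control 1 the highest library (log2 fold change -0.47, interval -1.31 to 0.37). Scg2 (-0.10), Scg3 (-0.05), Ptprn (-0.07), Vgf (0.11) and Cpe (-0.00350) had overlapping groups, as had Scg5 (-0.58), whose controls ran from 3.09 to 20.2 CPM. The median over the members was -0.28, against 0.01 over all genes, and 9 of 10 values were negative.

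Within a library the ratio of Chga to Pcsk2 was 1.81, 2.21 and 2.18 in the controls and 0.933, 1.07, 0.958 and 1.09 in SDmut. The ratio of Chga to Pcsk1 was 5.24 to 6.12 in controls and 3.08 to 3.67 in SDmut. Both ratios separated the groups, at differences of -1.03 and -0.78 on the log2 scale and an exact permutation p (two-sided) of 0.0571, the smallest that 3 against 4 libraries allow, and an adjusted p of 0.379 for each. The ratio of Chga to Chgb was 0.726 to 1.14 in controls and 0.504 to 0.895 in SDmut and overlapped (exact permutation p = 0.286). Over the 36 ratio tests made here, 6 ratios in 6 comparisons, no p adjusted by the Benjamini-Hochberg method was under 0.05.

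Beta-cell markers summed to 406 to 986 CPM in embryonic controls and to 147 to 231 CPM in SDmut, without overlap, while alpha-cell markers overlapped at 520 to 1366 and 378 to 908 CPM. Of the 8 beta-cell markers 7 were lower in SDmut, 5 with an unadjusted p under 0.05, and none was at 0. The 8 markers of postmitotic neurons, cells that also hold granins, overlapped at 106 to 516 CPM and 110 to 214 CPM. None of these 8 was higher in SDmut, and none had an unadjusted p under 0.05 in edgeR. Their median log2 fold change was -0.96, and that of the beta-cell markers was -1.11. The part of these cells in the chromogranin values was not tested. None of 17 genes of the peptide-processing list, 23 granule genes or 21 precursors was called by edgeR in embryonic pancreas. Of these lists, 0, 4 and 6 genes had an unadjusted p under 0.05 in edgeR, against 2.54% of all tested genes.

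In progenitors the members were expressed at low levels, and induction of Nkx2.2 was accompanied by a rise of Chgb. In pMN cells Cpe was highest at 28.2 ± 4.54 FPKM (SD, n = 3), followed by Scg3 (7.28 ± 1.45), Scg5 (5.09 ± 0.785) and Chga (2.37 ± 0.444) in separate steps. Ptprn and Chgb overlapped at 1.503 ± 0.541 and 1.28 ± 0.509 FPKM, and Pcsk2, Pcsk1, Scg2 and Vgf were at 0.130 to 0.323 FPKM. Scg2, second of the members in control islets by length-scaled level, was thus among the lowest here. Ins2 and Gcg, markers of beta and alpha cells, had no counts in pMN or iNkx2.2.

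Chgb was at 8.96, 3.70 and 7.40 CPM in pMN and at 42.4, 24.4 and 40.8 CPM in iNkx2.2. Every induced library was above every control, and replicate 2 was the lowest of both groups. The log2 fold change was 2.42 (SE 0.320, edgeR adjusted p = 0.00262), a 5.34-fold rise. Ptprn was at 11.1, 5.46 and 10.03 CPM in pMN and at 27.3, 16.1 and 25.4 CPM in iNkx2.2, a log2 fold change of 1.37 (SE 0.293, adjusted p = 0.0211 in edgeR). These 2 were the members called, both higher, where 9.49% of 15653 tested genes were called and 4.71% were called higher.

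Pcsk1 was at 1.17, 1.39 and 0.888 CPM in pMN and at 3.04, 4.21 and 2.68 CPM in iNkx2.2, higher in every induced library (log2 fold change 1.53, SE 0.427, edgeR adjusted p = 0.0536). Cpe was at 77.0, 69.4 and 88.2 CPM against 103, 93.7 and 121 CPM (0.44, SE 0.123, adjusted p = 0.0552 in edgeR). Chga was at 8.18, 6.55 and 9.73 CPM in pMN and at 13.0, 8.68 and 14.3 CPM in iNkx2.2, overlapping, a log2 fold change of 0.55 (SE 0.234, adjusted p = 0.177 in edgeR). Scg2 was at 0.268 to 0.408 CPM in iNkx2.2 against 0.243 to 1.06 CPM in pMN (log2 fold change -1.08, edgeR adjusted p = 0.222). Scg5 (0.44), Scg3 (0.27), Pcsk2 (0.47) and Vgf (0.71) had edgeR adjusted p-values of 0.127, 0.508, 0.633 and 0.537. In all, 5 members did not overlap, against 31.4% of tested genes.

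The replicate numbers pair pMN and iNkx2.2 libraries, and with a replicate block 6 members were called: Chga (adjusted p = 0.0113), Chgb (0.00818), Scg3 (0.0276), Pcsk1 (0.00699), Cpe (0.000802) and Ptprn (0.000105). The block also raised the number of genes called over the whole table, from 1486 to 4629. That fit also blocked the iSDmut libraries by their numbers, which were not taken as pairs. A block on pMN and iNkx2.2 alone, chosen after seeing the data, called 6886 genes. Chgb was called in each of the 17 alternatives run for this comparison, with values from 1.86 to 2.67, while Ptprn lost its call without pMN 1 or 2, without iNkx2.2 1 or 3 and within sequencing lane 2 (adjusted p 0.0514 to 0.0918). Within lane 2 alone Chgb was higher by 2.42 (edgeR adjusted p = 0.0356). The authors' deposited table called Chgb, Ptprn and Cpe.

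The comparison of iSDmut with pMN uses the same pMN libraries. With the SD-mutant transgene Chgb was at 16.96 and 23.8 CPM, above all 3 pMN libraries and below all 3 iNkx2.2 libraries, the lowest of which was at 24.4 CPM. Against pMN it rose by 1.60 (SE 0.343, edgeR adjusted p = 0.0380), and it was the only member called, against 3.54% of tested genes in both directions and 1.9% higher. Ptprn was at 25.9 and 17.1 CPM (log2 fold change 1.27, adjusted p = 0.0629), and Scg5 at 12.7 and 15.4 CPM against 8.68, 7.76 and 9.52 CPM (0.70, adjusted p = 0.0709 in edgeR). Pcsk1 was at 1.46 and 4.53 CPM (1.40, adjusted p = 0.132), Cpe at 113 and 105 CPM (0.47, adjusted p = 0.0934), and Chga at 11.9 and 9.01 CPM (0.35, adjusted p = 0.495, all in edgeR). The call for Chgb was lost without any pMN library, without iNkx2.2 1 or 3 or without either iSDmut library, at values of 1.32 to 1.86 and adjusted p of 0.0536 to 0.144, and in 4 of the other fits, of which the one on lane 2 holds a single iSDmut library. The authors' deposited table for this comparison did not call Chgb (1.44) and called Cpe (0.48).

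Between the 2 transgenes no member was called by edgeR, where 0.281% of genes were, in this fit or in any alternative, and 1 member, Chgb, had an unadjusted p under 0.05 (12.5% of all genes). Chgb differed by -0.82 (SE 0.339, unadjusted p = 0.0376, edgeR adjusted p = 0.364), with a 95% interval from -1.58 to -0.057. The other 9 members had log2 differences from -0.87 for Vgf to 0.76 for Scg2, all with edgeR adjusted p-values of 0.604 or more. The transgene's own level differed in the same direction, with Nkx2-2 at 343 to 378 CPM in iNkx2.2 and at 245 and 248 CPM in iSDmut. Its part in the Chgb difference was not tested.

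**Figure D3:**
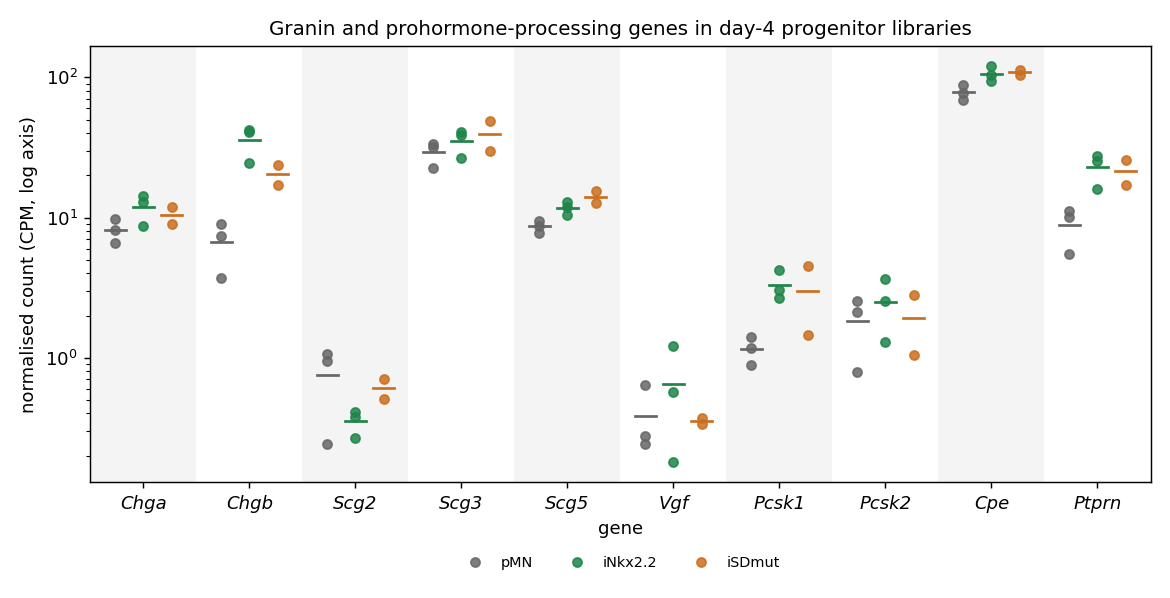
Normalised counts (CPM, log axis) of the 10 genes in the 8 progenitor libraries, with bars at group means. Chgb separates the groups in the order pMN, iSDmut, iNkx2.2, from 3.70 to 8.96, then 16.96 and 23.8, then 24.4 to 42.4 CPM.

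The Chga to Chgb count ratio was 0.913, 1.76 and 1.31 in pMN, 0.306, 0.356 and 0.350 in iNkx2.2, and 0.703 and 0.380 in iSDmut. The ratio in iNkx2.2 was below that of pMN in all libraries, by 1.93 on the log2 scale, with an exact permutation p of 0.1 (two-sided), the smallest that 3 against 3 libraries allow. In iSDmut the difference from pMN was -1.31 (exact permutation p = 0.2, again the smallest possible).

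Of 17 genes of the peptide-processing list 2 rose in iNkx2.2, Cpm by 1.26 (edgeR adjusted p = 0.0194) and Pcsk1n. Pcsk1n, the inhibitor of the Pcsk1 product, averaged 0.802 CPM in pMN and 2.56 CPM in iNkx2.2. For each list in this comparison the share of all tested genes called was 9.49%, with 4.71% called higher. Of 20 granule genes 4 rose and none fell. Hid1, needed for granule formation, rose from 4.91 ± 2.07 to 21.9 ± 3.198 CPM (SD, n = 3 each), by 2.14 on the log2 scale (edgeR adjusted p = 0.00263). Slc18a2, the vesicular monoamine transporter, rose by 1.62, and the Rab GTPase genes Rab3d and Rab3b rose by 0.97 and 1.40. The list's median was 0.31, against -0.00865 over all genes. In iSDmut Hid1 and Slc18a2 rose against pMN, by 1.44 and 1.98, where 3.54% of all tested genes were called. None of the 17 genes of the peptide-processing list was called by edgeR (2 had an unadjusted p under 0.05, against 20.2% of all genes). Sst, the somatostatin precursor, fell in iNkx2.2, by 3.81 (edgeR adjusted p = 0.0159), 1 of 10 tested precursors. Pcsk1n, Rab3b and Sst were below the level set for naming genes and are named after their values were seen.

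The 8 postmitotic neuron markers summed to 382 to 794 CPM in pMN, 776 to 1134 in iNkx2.2 and 934 to 1118 in iSDmut, with overlap between pMN and iNkx2.2 and none between pMN and iSDmut. In iNkx2.2 1 of the 8 rose (Tubb3, named after its value was seen), 5 were positive and the median was 0.10. In iSDmut 8 of 8 were positive with a median of 0.69, and none was called by edgeR (1 had an unadjusted p under 0.05). Of 6 tested motor neuron markers 5 fell in iNkx2.2, with a median of -2.74, and 2 fell in iSDmut. Motor neuron progenitor markers summed to 833 to 965, 371 to 524 and 396 to 580 CPM. Insm1, a zinc-finger factor of neuroendocrine cells, rose in iNkx2.2 by 2.55 (edgeR adjusted p = 0.000362), while Neurod1 fell by 1.57, both named after their values were seen. The part of these cells in the members' values was not tested.

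**Figure D4:**
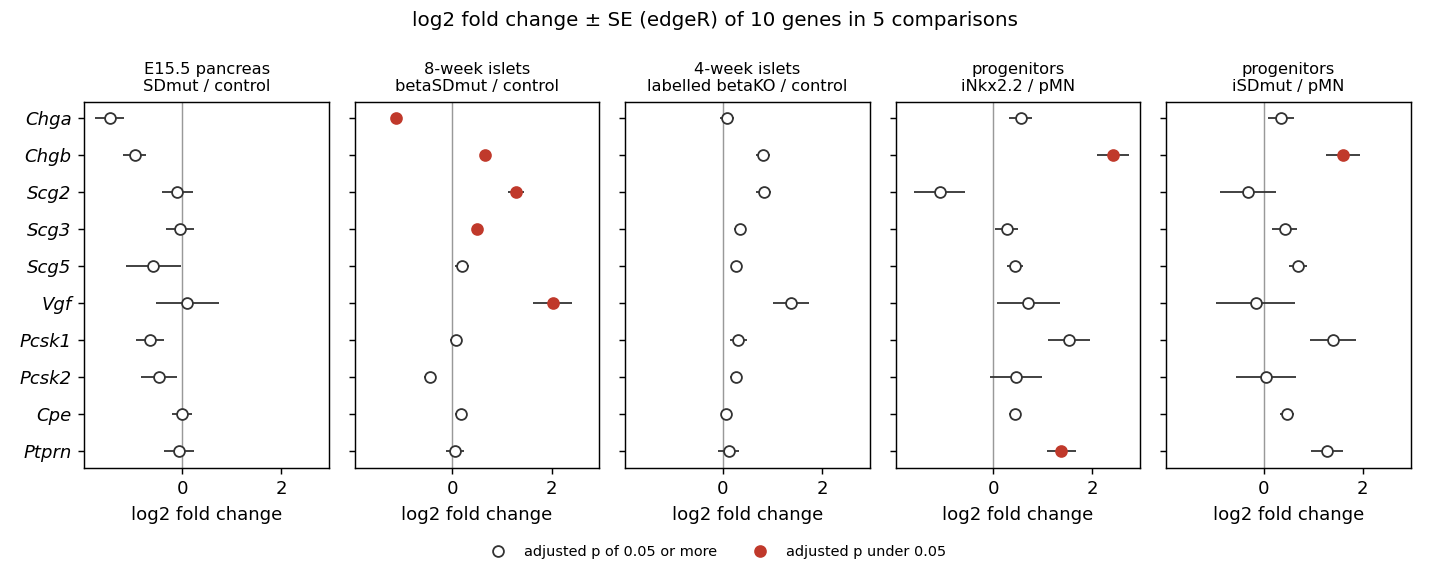
log2 fold changes with standard errors (edgeR) of the 10 genes in 5 comparisons, with filled points for an adjusted p under 0.05. Chga is at -1.46 and -1.13 in the embryonic and 8-week mutant tissue and near 0 at 4 weeks, and Chgb is at 2.42 and 1.60 in the progenitor comparisons.

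Nkx2.2 binding in MIN6 cells lay near most members. The authors' final set holds 6473 sites (mm10 coordinates, with replicate values in log2 CPM), and 24 of them were within 50000 bp of a member's start or inside the gene. They covered 9 of 10 members, all but Ptprn, whereas 35.9% of 12789 protein-coding genes tested in 8-week islets had such a site. The members' median span was 29172 bp and that of the tested genes 25318 bp. In the authors' deposited table of bound genes 7 of 10 members were listed, Chga, Scg2, Scg3, Vgf, Pcsk1, Pcsk2 and Cpe, against 26.0% of the genes of their islet table. The sites that table joins to Scg2, Pcsk2 and Pcsk1 are 248856, 121156 and 55872 bp from the starts of these genes.

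The strongest site near a member was at chr2:132733081, 48197 bp before Chgb and inside another gene, Shld1, with a mean of 9.15 log2 CPM (9.16 and 9.14 in the replicates), rank 136 of 6473. Chga had 2 sites, at chr12:102532755 and chr12:102551317, 22214 and 3652 bp before the start, with means of 8.35 and 7.05 log2 CPM. The site nearest to a start was that of Vgf at chr5:137024448, 1944 bp before the gene, at 7.56 log2 CPM. Scg3, Pcsk1, Pcsk2 and Cpe carried sites in introns, and the strongest of these had 7.72, 6.03, 7.06 and 7.52 log2 CPM. Scg2 had 4 sites outside the gene, the strongest with 7.78 log2 CPM, and the strongest of Scg5 and Pcsk1 had 6.66 and 6.59. The strongest site of Scg5 lay inside another gene, Arhgap11a. The binding was measured in a line without the mutation, and the table of final sites gives no input value.

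The 101 bases centred on 4 of these sites are given on the plus strand, to show a short sequence that recurs near the centre. Capitals mark GCAAC or its reverse complement GTTGC, which was searched for after the windows had been read.
Chgb site, chr2:132733031-132733131: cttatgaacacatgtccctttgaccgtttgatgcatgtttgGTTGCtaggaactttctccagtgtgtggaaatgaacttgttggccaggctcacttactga
Vgf site, chr5:137024398-137024498: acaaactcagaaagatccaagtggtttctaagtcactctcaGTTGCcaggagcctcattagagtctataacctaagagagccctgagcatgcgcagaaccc
Chga site nearer the start, chr12:102551267-102551367: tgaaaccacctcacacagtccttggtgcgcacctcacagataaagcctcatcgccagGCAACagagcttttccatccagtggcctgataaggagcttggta
Chga site farther from the start, chr12:102532705-102532805: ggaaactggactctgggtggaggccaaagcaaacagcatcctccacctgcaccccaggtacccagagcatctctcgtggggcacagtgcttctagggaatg

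GCAAC was present on either strand in 12 of the 24 windows (50%) and in 39.8% of all 6473 final-site windows. It was picked after member windows had been read, so the 12 are a description and not a test. Windows of the same length 2000 bp away held GCAAC in 11.6% of cases. AAGTG, the core bound by Nkx2 homeodomains, was present in 7 of the 24 windows, in 22.7% of all final-site windows and in 21.3% of the windows 2000 bp away. The longer TNAAGTG, with any base at N, was in 2 of the 24 windows. It was in 7.79% of all final-site windows and in 5.48% of those 2000 bp away. The stronger Chga site held none of these.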

How the data were processed

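RNA was measured in 7 embryonic pancreas, 9 islet and 8 progenitor libraries. The deposited gene tables hold raw read counts, per the deposited readme, and separate deposited tables hold FPKM for islets and progenitors. Final Nkx2.2 sites are deposited as log2 CPM values per replicate, and the authors' tables give log2 fold changes, p-values and calls (a score of -1, 0 or 1). The submitters' processing notes name STAR, Cufflinks, DESeq2, bedtools 2.17.0, edgeR 3.20.9, limma 3.34.9 and mm10.

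From the counts, TMM-scaled CPM and quasi-likelihood tests were computed with edgeR 4.0.16 in R 4.3.3, after edgeR's filter on low counts, with Benjamini-Hochberg adjustment over all genes tested and a threshold of 0.05. The progenitor groups shared 1 fit. Standard errors came from the F statistic and 95% intervals from the t quantile at edgeR's degrees of freedom. Ratios used counts with a pseudocount of 0.5 and exact permutation tests (scipy 1.17.1). The tests were tested on simulated data. Each planted change was 4-fold, up or down, larger than most member changes above, so recovery of smaller changes was not measured. For edgeR, the planted changes recovered were 70.5% for embryonic pancreas, 84.8% at 8 weeks and 79.5% at 4 weeks. They ran from 65.5% (difference of islet effects) to 90.4% (iNkx2.2 against pMN). False calls made up 4.79% of calls for iSDmut against iNkx2.2 and 12.4% at 4 weeks, the lowest and highest shares. In every comparison but the former the share was above the threshold of 0.05. Alternatives were other scalings, DESeq2 1.42.0, no filter, limma 3.58.1 on log2(FPKM + 1), each library left out, an acinar covariate, lane 2 alone, and a replicate block.

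The 10 members and all lists were chosen with earlier results of these data known. Members are named in every comparison, and of the lists at most 6 called genes, those whose mean log2 CPM reached 2. Same-numbered pMN and iNkx2.2 libraries deviated together (correlations 0.535, 0.513 and 0.568 over 15653 genes), which is the source of the pairing. Depth limits the precision of Scg2, Vgf, Pcsk1 and Pcsk2 in progenitors, which were at under 5 CPM. Clonality, driver lines and reads were not analysed here.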

Additional observations from a re-analysis of the deposited data

Results flagged for a closer look

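Chga differed between the islet comparisons, with a difference of effects, betaSDmut minus betaKO, of -1.20 on the log2 scale by edgeR's interaction test. Scg5 was at 4.77 CPM in SDmut embryonic pancreas replicate 3, away from the other 3 libraries of its group, at 7.38 to 7.71 CPM, with a gap of 0.887 of the group's range, past Dixon's critical value. Chance marks about 1 in 20 such groups, and 10 were tested.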

How the results depend on the processing

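Of single-member values, none of a called member changed direction under any alternative, and the cause of each change below was not tested. The block fitted on 2 groups only was chosen after seeing the data. Called members numbered 0 in embryonic pancreas and 1 with DESeq2. At 8 weeks they numbered 3 with an acinar covariate and 0 to 6 with 1 library left out. At 4 weeks they numbered 3 with DESeq2 and 2 without the count filter. For the difference of islet effects they numbered 2 with DESeq2, 0 with the covariate and 0 to 1 with 1 library left out. For iNkx2.2 against pMN they numbered 4 with total library size, DESeq2 or no filter, 1 in lane 2 and 1 to 3 with 1 library left out. For iSDmut against pMN they numbered 4 with DESeq2, 0 without the filter, with FPKM, with 2 groups only or in lane 2, and 0 to 1 with 1 library left out. Lane 2 holds 1 iSDmut library, so that fit, like each fit that leaves 1 library in a group, takes its spread from the other libraries. Over the whole table DESeq2 called 25 genes in embryonic pancreas, 770 at 4 weeks and 653 for the difference of islet effects. It called 2271 for iNkx2.2 and 1382 for iSDmut, each against pMN. The main fits called 1, 233, 194, 1486 and 554 genes, in the same order. With the acinar covariate 1648 genes were called at 8 weeks and 120 for the difference.

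With the replicate block, called members numbered 3 at 8 weeks, 1 at 4 weeks, 0 for the difference of islet effects, 6 for iNkx2.2 against pMN (7 with the block on 2 groups only) and 6 for iSDmut against pMN. Genes called over the whole table in the 3 islet fits numbered 757, 263 and 135, in that order. They numbered 4629 for iNkx2.2 against pMN (6886 on 2 groups only) and 2626 for iSDmut against pMN. The block turned Pcsk1 (-0.0026) and Ptprn (-0.038) at 8 weeks, Scg2 (0.0015) and Vgf (0.62) for iSDmut against pMN, and Ptprn (0.019) between the transgenes, and a block on the number in the embryonic labels turned Ptprn (0.019). The numbers were not taken as pairs outside pMN and iNkx2.2, where correlations were -0.0719 and -0.121 at 8 weeks, -0.0626 at 4 weeks, and 0.343 and 0.0503 for pMN with iSDmut.

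Other changes of direction were of members not called. In embryonic pancreas Cpe was at 0.00073 with RLE factors, 0.00072 with DESeq2 and 0.00089 without the filter, and Vgf at -0.29 without both muscle-containing libraries. With total library size, which moved the median of all genes for the difference of islet effects, Chga (-0.013) and Cpe (-0.019) turned at 4 weeks, and Chgb (0.032), Scg5 (0.12) and Ptprn (0.12) in the difference. With FPKM, Chga (-0.11), Cpe (-0.11) and Ptprn (-0.10) turned at 4 weeks, Chgb (0.055), Scg5 (0.074) and Ptprn (0.18) in the difference, and Cpe (-0.0071) between the transgenes. With the acinar covariate, Chga (-0.14), Cpe (-0.15) and Ptprn (-0.51) turned at 4 weeks, and Chgb (0.14), Scg5 (0.27), Pcsk1 (0.014) and Ptprn (0.43) in the difference. In lane 2, Vgf (0.38) turned for iSDmut against pMN, and Chga (0.13), Pcsk2 (0.13) and Ptprn (0.25) between the transgenes.

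With 1 library left out, values in embryonic pancreas ranged from -0.38 to 0.34 for Scg2, -0.31 to 0.27 for Scg3, -1.01 to 0.38 for Scg5, -0.35 to 1.01 for Vgf, -0.71 to 0.080 for Pcsk2, -0.14 to 0.21 for Cpe and -0.37 to 0.25 for Ptprn. They ranged at 8 weeks from -0.026 to 0.17 for Pcsk1 and -0.14 to 0.28 for Ptprn, and at 4 weeks from -0.076 to 0.22 for Chga, -0.040 to 0.18 for Cpe and -0.22 to 0.39 for Ptprn. In the difference they ranged from -0.29 to 0.023 for Chgb, -0.16 to 0.059 for Scg5 and -0.33 to 0.28 for Ptprn. For iSDmut against pMN they ranged from -0.71 to 0.034 for Scg2, -0.39 to 0.45 for Vgf and -0.82 to 0.61 for Pcsk2. Between the transgenes they ranged from -0.24 to 0.47 for Scg3, -1.18 to 0.46 for Pcsk1, -1.29 to 0.14 for Pcsk2, -0.046 to 0.13 for Cpe and -0.43 to 0.17 for Ptprn.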
